A study of Mus musculus with 20 samples.

Results

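Gene expression of the normal left ventricle, the main pumping chamber of the heart, was compared with that of normal quadriceps, a thigh muscle built mostly of fast fibres. The comparison rests on 9 of the 20 arrays of the series: left ventricle arrays 1 to 4 (n = 4) and quadriceps arrays 1 to 5 (n = 5) of C57BL/6, an inbred mouse strain with normal dysferlin. Left ventricle array 5 was left out of the comparison because it carries skeletal muscle transcripts, and counts are also given with it. All animals were female, untreated as far as the labels say, and 32 to 34 weeks old, and the quadriceps was taken from the right leg. The labels call the arrays of a tissue biological replicates from 5 mice and do not say whether both tissues came from the same animals. The series was made to set these C57BL/6 tissues as controls against those of dysferlin-deficient SJL/J mice. Total RNA was measured on Affymetrix MG_U74Av2 arrays, which give 1 signal per probe set, a group of short probes for 1 transcript.

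Heart and limb muscle share the plan of the sarcomere, the repeating unit of thick myosin and thin actin filaments, but build it largely from different members of the same gene families. Heart muscle cells beat without pause, burn mainly fatty acids, and are joined end to end by intercalated discs that carry force and current from cell to cell. Their calcium release channel, Ryr2, is opened by calcium that enters through the L-type channel, whereas in limb fibres Ryr1 is opened by direct contact with the voltage sensor Cacna1s. Limb fibres arise by fusion of myoblasts under the myogenic factors Myod1, Myf6 and Myog and contract only on command of a motor nerve. Fast limb fibres draw on glycogen and glycolysis for short bursts of work.

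Promoters of 6 genes with very large differences are shown first, because these genes mark the contrast; within each direction they were the first 3 when the matched promoters were ordered by how many kinds of motif they held, and Tnnt2 and Ankrd1 held as many kinds as Myl7. They came from the 15 genes with the largest difference in each direction (30 in all), of which 20 matched an entry by symbol in the promoter table of RefSeq (build GRCm38.p6). The first listed start was used and the 250 bases before it were searched on both strands for 6 motifs, which may overlap each other. TATAAA is the core of the box where transcription complexes assemble. The letters CANNTG form the E-box known to be bound by myogenic factors. Factors of the GATA family are known to bind AGATAA, and those of the TEAD family the MCAT element CATTCC. The CArG box, bound by serum response factor, and the MEF2 box were searched by name. Each sequence runs 5′ to 3′ on the gene's strand, and capitals mark every match.
Nppb (chr4:147985650-147985899, + strand): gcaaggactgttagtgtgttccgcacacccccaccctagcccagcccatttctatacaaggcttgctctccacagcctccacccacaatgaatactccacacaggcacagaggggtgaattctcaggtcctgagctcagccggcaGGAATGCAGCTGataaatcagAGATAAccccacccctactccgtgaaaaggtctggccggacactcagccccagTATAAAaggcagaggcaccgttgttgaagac
Myl7 (chr11:5898783-5899032, - strand): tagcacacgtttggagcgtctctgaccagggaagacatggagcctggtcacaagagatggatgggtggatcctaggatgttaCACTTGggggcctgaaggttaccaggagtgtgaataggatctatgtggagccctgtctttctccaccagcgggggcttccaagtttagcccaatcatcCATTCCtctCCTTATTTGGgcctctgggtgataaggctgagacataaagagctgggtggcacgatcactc
Fhl2 (chr1:43196762-43197011, - strand): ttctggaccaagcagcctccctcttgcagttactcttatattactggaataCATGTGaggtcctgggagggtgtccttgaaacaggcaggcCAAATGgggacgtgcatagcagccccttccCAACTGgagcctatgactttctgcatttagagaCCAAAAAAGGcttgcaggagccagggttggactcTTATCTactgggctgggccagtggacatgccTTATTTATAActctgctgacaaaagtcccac
Myh1 (chr11:67199852-67200101, + strand): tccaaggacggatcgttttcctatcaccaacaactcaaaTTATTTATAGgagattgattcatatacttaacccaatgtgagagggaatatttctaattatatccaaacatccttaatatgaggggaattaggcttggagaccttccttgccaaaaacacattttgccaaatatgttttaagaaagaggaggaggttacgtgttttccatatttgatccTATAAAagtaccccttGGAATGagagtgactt
Myh4 (chr11:67237562-67237811, + strand): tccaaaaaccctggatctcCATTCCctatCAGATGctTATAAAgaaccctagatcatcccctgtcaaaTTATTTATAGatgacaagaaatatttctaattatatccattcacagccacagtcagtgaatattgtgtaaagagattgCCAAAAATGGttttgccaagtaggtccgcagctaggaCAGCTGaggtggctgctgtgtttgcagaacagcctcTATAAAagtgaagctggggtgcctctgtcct
Mstn (chr1:53061390-53061639, + strand): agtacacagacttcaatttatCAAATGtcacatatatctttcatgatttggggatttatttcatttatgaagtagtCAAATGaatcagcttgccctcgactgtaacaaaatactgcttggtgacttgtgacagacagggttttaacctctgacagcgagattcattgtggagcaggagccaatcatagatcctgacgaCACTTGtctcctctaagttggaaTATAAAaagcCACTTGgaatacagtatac
Nppb, Myl7 and Fhl2 were higher in left ventricle, and Myh1, Myh4 and Mstn were higher in quadriceps. The TATAAA match nearest the start lay at -31 in Nppb, -32 in Myh1, -31 in Myh4 and -29 in Mstn. In Fhl2 a match on the other strand at -28 overlapped a MEF2 box. An AGATAA match was present in 4 of the 11 matched promoters of genes higher in left ventricle and in 0 of the 9 of genes higher in quadriceps, against 10.3% of all 27025 promoters of the table. The MCAT letters were present in 4 of 11 and in 2 of 9 (12.6% of all), and the CArG box in 2 of 11 and 1 of 9 (1.4% of all). The MEF2 box was present in 2 of 11 and 2 of 9 (3.01% of all), the E-box in 8 of 11 and 6 of 9 (66% of all) and TATAAA in 2 of 11 and 3 of 9 (13% of all). A match describes letters in this window only, and with so few promoters the shares were not tested.

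The arrays were checked against their labels with genes that define the other muscle. All 8 skeletal defining genes (Tnnt3, Tnni2, Mylpf, Atp2a1, Actn3, Pvalb, Myh4 and Casq1) and all 8 heart defining genes (Tnnt2, Tnni3, Myh6, Ryr2, Mybpc3, Nppa, Nppb and Myl7) separated the groups without overlap. Each array thus lay on the side of its label. Left ventricle array 5 did so too (Myh4 5568, against at least 11060 in quadriceps), so this check does not detect partial mixing. The skeletal share of an array is the median over the 8 skeletal genes of its signal divided by the quadriceps mean, and the heart share is the like for heart genes. The skeletal share was 0.0302, 0.00103, 0.000917 and 0.0071 on left ventricle arrays 1 to 4, against 0.144 on the array left out. The heart share of the quadriceps arrays was 0.00713, 0.0747, 0.00889, 0.0335 and 0.00561. Left ventricle array 1 and quadriceps array 2 therefore carried some transcripts of the other muscle. The heart share of quadriceps array 4 was raised too, but so was its skeletal share (1.94), and its heart genes disagreed. Every heart defining gene but Ryr2 read above arrays 1, 3 and 5 on it. Ryr2 read 6.1 against 10.0 on array 1, and Cdh2 (9.3) and Ankrd1 (43.8) were lowest on array 4. Whether array 4 carried heart transcripts was not tested. Quadriceps array 4 also stood apart in other ways: its highest signal was 46629 against at most 18588 on the other quadriceps arrays, and its median rank correlation with its group was 0.863 against at least 0.94 for the others.

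Tissue and hybridisation run cannot be told apart in these 9 arrays. By the order of the processing times in the experiment reports, left ventricle arrays 1 to 4 were hybridised in 1 run on chip lot 2, quadriceps arrays 1, 2, 3 and 5 in another run on chip lot 1, and quadriceps array 4 in a later run on chip lot 2. The run was fitted as a random block (1 run for left ventricle and 2 for quadriceps), and the chip lot as a block, in which array 4 alone stands for quadriceps. The correlation within runs (0.499) rests on quadriceps array 4 against the other quadriceps arrays. The run block cannot remove a shift shared by all arrays of a tissue, so a call that it keeps does not separate tissue from run. The 5′ to 3′ signal ratios, a measure of RNA integrity, overlapped between the tissues. The ratio of the Gapdh controls was 0.780 ± 0.0813 (SD, n = 4) in left ventricle and 0.831 ± 0.216 (SD, n = 5) in quadriceps (two-sided exact permutation p = 0.690). The actin ratio was 0.583 ± 0.0407 and 0.715 ± 0.218 (exact permutation p = 0.317). The median signal was 70.7 ± 2.44 in left ventricle and 62.6 ± 3.99 in quadriceps (exact permutation p = 0.0238, adjusted over 4 measures 0.0635). With these groups the smallest p the test can give is 0.00794.

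**Figure D1:**
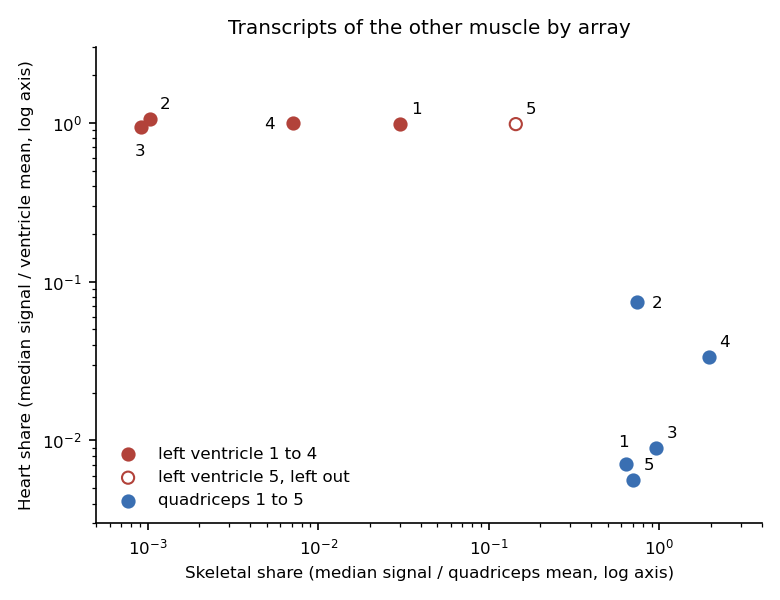
Skeletal share (horizontal) and heart share (vertical) of each C57BL/6 array on log axes, without unit, 1 point per array. Left ventricle arrays lie at the upper left and quadriceps arrays at the lower right. Left ventricle array 5 (open circle, left out) has a skeletal share of 0.144, and quadriceps array 2 the highest heart share of its group, 0.0747.

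Of 5244 genes tested, 2429 (46.3%) differed between the tissues at an adjusted p under 0.05. Of these, 1448 (27.6%) were higher in left ventricle and 981 (18.7%) were higher in quadriceps. At least 2-fold differences were called for 814 and 505 genes. The values of the groups did not overlap for 1267 genes with left ventricle above (24.2%) and 827 with quadriceps above (15.8%). These shares are the background for every count below: 46.3% of all genes were called, so a list with a like share of members called does not stand out. The signal filter kept genes with a mean above 68.8 in at least 1 group. A gene kept through 1 tissue alone has the higher mean there by construction. The direction of such members in the list counts below is therefore no result about the list. Positive log2 differences mean higher in left ventricle, errors are standard errors, and the median over all genes tested was 0.13. Shifting every array to the same median moved that median by -0.18 and the calls to 1069 higher and 1291 lower (59.6% higher as deposited, 45.3% after the shift, 53.8% after quantile normalization), so small differences have no settled direction. With run as a random block 804 genes were called (481 higher, 323 lower), and with left ventricle array 5 included 2691 (1617 and 1074). Leaving out 1 array at a time gave 2041 to 2920 calls, the most without quadriceps array 4. The names of 705 tested probe sets mark possible cross-reaction with related transcripts, and among the genes named below as called these were Abcc8, Acads, Alas2, Atp2a1, Atp2a2, Atp5g1, C1qb, Cacna1c, Cd68, Chrne, Ckm, Cox4i1, Cox6a1, Cox8b, Dlst, Dsc2, Eya1, Gja1, Gnai2, Gpd2, Hcn2, Hoxa4, Hoxc9, Ighm, Kcnd2, Myh8, Mylpf, Pcx, Pfkp, Pkp2, Pparg, Prdx2, Pvalb, S100a1, Tie1 and Tnnc2.

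Highest in left ventricle was Myzap, a protein of the heart's intercalated disc, which read 2006, 2412, 1921 and 2071 on arrays 1 to 4 and 4.7, 75.9, 4.4, 10.3 and 2.6 on quadriceps arrays 1 to 5 (log2 difference 7.91 ± 0.75, adjusted p = 8.87e-06). Signals are listed in this array order throughout. Next came Ryr2, the natriuretic peptide gene Nppb, the desmosomal gene Perp, the atrial light chain Myl7, the cadherin Cdh2, Tnnt2, Dsc2, Mybpc3, Dsp, the glycogen phosphorylase Pygb, Ankrd1, Fhl2, the transport myosin Myo5b and Ndrg4, with log2 differences from 7.46 down to 4.99. Highest in quadriceps was Myh1, a fast myosin heavy chain, with 58.7, 1.8, 1.5 and 14 in left ventricle and 6072, 6574, 8390.4, 14448 and 8728 in quadriceps (log2 difference -9.80 ± 0.73, adjusted p = 1.34e-06). It was followed by Mylpf, Tnnt3, Atp2a1, Myh4, Ryr1, Actn3, Tbx15, Tspan8, Mstn, Car3, Myoz1, Tnnc2, Tnni2 and Casq1, with log2 differences from -9.18 to -5.39. All 30 were called in the same direction with run as a random block and in the SJL/J arrays. The SJL/J contrast used left ventricle arrays 2 to 5 and quadriceps arrays 2 to 4. Left out were left ventricle array 1 (skeletal share 0.151) and quadriceps arrays 1 and 5 (heart shares 0.74 and 0.878), which carried transcripts of the other tissue, and quadriceps array 3, which was kept, had a heart share of 0.143. For 16 of the 30 the lower group had a mean below the median signal of 68.8, and readings under the floor of 3.1 were raised to it before taking log2, so the size of such a difference depends on the floor. With a floor of 16, the log2 difference of Myh1 was -8.57 and that of Ryr2 6.48. The order within both lists changed too: Tnnt3 (-8.59) passed Myh1, Mylpf (-7.47) fell behind Tnnt3, Ryr1, Actn3, Myh4 and Atp2a1, and Nppb (6.54) passed Ryr2. In such bulk tissue, fewer cells of a type and less RNA per cell cannot be told apart.

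Myosin heavy chains are the motors of the thick filament. Of 5 tested, 3 were higher in quadriceps and 1 in left ventricle. Myh1 and Myh8 passed the signal filter through quadriceps alone, so their direction was set by the filter. Myh6, the fast heavy chain of the adult mouse heart, read 11065, 10979.6, 9858 and 10737 in left ventricle and 93.5, 3392, 399.5, 870.1 and 122 in quadriceps (log2 difference 4.66 ± 0.85, adjusted p = 0.000922). The left ventricle values lay within a narrow band, and the highest quadriceps values were those of arrays 2 and 4, whose heart shares are computed from Myh6 among other genes. Without array 2 the log2 difference was 5.41, and without array 4 it was 4.92. Myh4, the heavy chain of the fastest limb fibres, read 777, 10.1, 15 and 102 in left ventricle and 11060.0, 12658, 18588, 40130.3 and 13398 in quadriceps (log2 difference -8.17 ± 1.03, adjusted p = 7.71e-05). Its left ventricle value was highest on array 1 and lowest on arrays 2 and 3. A second Myh4 probe set of low signal ran the opposite way (1.47, adjusted p = 0.0203 with every probe set tested on its own). Myh8, the perinatal heavy chain, was also higher in quadriceps (log2 difference -4.87 ± 0.43, adjusted p = 4.84e-06), on a probe set shared with related transcripts.

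The slow heavy chain Myh7 did not pass the test (log2 difference 2.04 ± 0.86, adjusted p = 0.071). It read 3072, 3478, 4056 and 3482 in left ventricle and 236, 603, 197, 3030.4 and 5322 in quadriceps, where array 4 came close to the ventricle, array 5 exceeded it and arrays 1, 2 and 3 lay far below. A second Myh7 probe set was called higher in left ventricle when tested alone (1.64, adjusted p = 0.00909), with overlapping groups. Myh7 was called without quadriceps array 4 or 5 (adjusted p = 0.0223 and 0.0101). This split recurred in other genes of slow limb fibres and is described below.

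The light chains and the troponins also came in heart and limb forms. Of the 6 light chains, 4 were higher in left ventricle and 2 in quadriceps. Myl7 passed the signal filter through left ventricle alone, and Mylpf and the troponin Tnni2 through quadriceps alone. The direction of these genes was set by the filter. Mylpf, the regulatory light chain of fast fibres, read 30.8, 1.6, 1.5 and 3.7 against 3817, 3145, 3265, 3341 and 3172 (log2 difference -9.18 ± 0.57, adjusted p = 3.5e-07), and the fast light chain Myl1 had -4.68 ± 0.41. The ventricular chains Myl2 (2.57 ± 0.63) and Myl3 (4.13 ± 0.78) were higher in left ventricle. Of the 8 troponins, 3 were higher in left ventricle, 3 in quadriceps and 2 were not called. Cardiac troponin T, Tnnt2, read 7789.8, 8483, 8186 and 8405 against 48, 546, 65.5, 190.0 and 32.4 (log2 difference 6.34 ± 0.66, adjusted p = 1.86e-05). Cardiac troponin I, Tnni3, followed (log2 difference 4.99 ± 0.86, adjusted p = 0.000668), and so did Tnnc1, the troponin C of heart and slow fibres (log2 difference 4.48 ± 0.71, adjusted p = 0.000381). The fast forms Tnnt3 (-8.59 ± 0.66), Tnnc2 (-6.34 ± 0.42) and Tnni2 (-6.0 ± 0.45) were each higher in quadriceps without overlap. Quadriceps array 2 was the highest of its group for Tnnt2 and Tnni3 and for Myh6. With run as a random block Tnnt2 was still called (adjusted p = 0.0091) and Myh6, Tnni3, Tnnc1, Myl2 and Myl3 were not (adjusted p from 0.0621 to 0.233).

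Thin filament and Z-disc genes differed less evenly. Actn3, the fast fibre form of alpha-actinin that crosslinks actin at the Z-disc, read 329, 19.1, 15.2 and 122 against 9701, 11046, 16034, 40376 and 11028 (log2 difference -8.01 ± 0.81, adjusted p = 1.46e-05), while Actn2, the form of heart and all limb fibres, did not pass the test (log2 difference 0.10 ± 0.21, adjusted p = 0.702). Skeletal actin, Acta1, was higher in quadriceps (log2 difference -2.01 ± 0.39, adjusted p = 0.00141) and read 2969, 4765, 3177 and 3488 in left ventricle and 8725, 9909.9, 15294, 40526 and 10787 in quadriceps. The groups did not overlap, yet no ventricle reading was near the floor, unlike those of Myh1. Cardiac actin, Actc1, was read by a probe set shared with related transcripts and did not pass the test (log2 difference -0.18 ± 0.35, adjusted p = 0.693). Tropomyosin Tpm2 was higher in quadriceps (log2 difference -4.53 ± 0.21, adjusted p = 3.9e-08), and Tpm1 was not called (log2 difference 0.61 ± 0.24, adjusted p = 0.0516). Tpm1 was called without quadriceps array 1 or 4 (adjusted p = 0.0251 and 0.0369).

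Of 18 thick filament and Z-disc genes, 4 were higher in left ventricle and 8 in quadriceps. Myoz1, Mybph and Ankrd2 passed the signal filter through quadriceps alone, so their direction was set by the filter. Mybpc3, the cardiac form of myosin-binding protein C, read 7287, 8581, 8443 and 8156 against 67.1, 672, 79.6, 356 and 80.6 (log2 difference 5.67 ± 0.61, adjusted p = 2.28e-05). The LIM domain genes Fhl2 (5.15 ± 0.40) and Csrp3 (3.43 ± 0.56), the latter a mechanical sensor protein of the Z-disc, were higher in left ventricle. Myoz1, a Z-disc protein of fast fibres that binds calcineurin, read 87.2, 42.2, 57.8 and 45.2 against 5737, 5143, 7243, 13835 and 5185 (log2 difference -6.95 ± 0.31, adjusted p = 3.11e-08). Mybph (-4.96 ± 0.32) and Pdlim3 (-4.90 ± 0.18) were also higher in quadriceps. Smaller differences toward quadriceps were called for Fhl1 (-1.54 ± 0.24), Ldb3 (-1.07 ± 0.17), Nrap (-0.95 ± 0.13) and the intermediate filament Des (-0.61 ± 0.19). Des was not called without left ventricle array 2 or 3 (adjusted p = 0.0508 and 0.0621). Ankrd1 and Ankrd2, the remaining called members, are described below, and 6 were not called.

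Paired isoforms were followed as 26 heart and limb pairs, of which 19 had both forms tested. In 15 of these the heart form was higher in left ventricle and the limb form higher in quadriceps, each without overlap between the groups. Heart form and limb form are names for the first and second member of a listed pair. Within left ventricle, the limb form had the higher mean signal for Pygm, Pfkm, Pgam2 and Ldha and for no other of these 15 pairs. Mean signals there were 3481 for Pygm and 1324 for Pygb, and 3082 for Pfkm and 585 for Pfkl. Pgam2 had 2070 and Pgam1 430, and Ldha had 3978 and Ldhb 1853. Probe sets of the same gene can differ in signal (Mylpf 3348 and 1183 in quadriceps). Such ranks between genes are therefore of signal and not of transcript amount. The limb form was higher in quadriceps in all 19. The 4 exceptions were Actc1 and Acta1, Actn2 and Actn3, Ckmt2 and Ckm, and Hk1 and Hk2: the first member was not called in the first 3 pairs, and Hk1 was higher in quadriceps. The 15 pairs were the same number without quadriceps array 2 or 4, with left ventricle array 5 and after median centring, 10 with chip lot as a block and 7 with run as a random block. In the SJL/J arrays 14 of the 19 pairs were called this way. The pairs were chosen with earlier results of these data known, so their direction is no independent evidence.

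**Figure D2:**
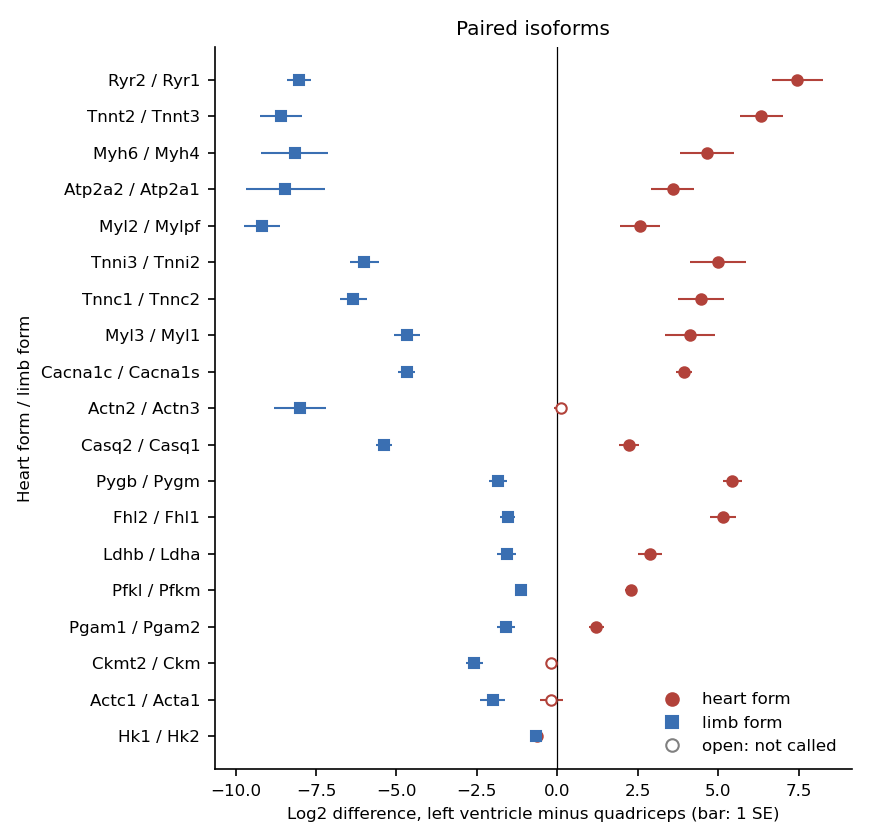
Log2 difference (left ventricle minus quadriceps) of both forms in the 19 pairs with both forms tested, with bars of 1 standard error (n = 4 and n = 5 arrays). Heart form and limb form name the first and second member of each pair. Heart forms (circles) were called to the right of 0 in 15 pairs and limb forms (squares) to the left in all 19, and filled symbols passed the test.

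Of 19 genes of calcium handling, 8 were higher in left ventricle and 8 in quadriceps. Ryr2, Cacnb2 and Fkbp1b passed the signal filter through left ventricle alone, and Ryr1, Cacng1 and Ppp1r1a through quadriceps alone. The direction of these genes was set by the filter. Ryr2 read 2327, 2105, 2125 and 2240.2 in left ventricle and 10.0, 139.5, 7.3, 6.1 and 4.8 in quadriceps (log2 difference 7.46 ± 0.80, adjusted p = 2.18e-05). Array 2 was the highest of the quadriceps arrays and still far below every ventricle. Ryr1, the release channel of limb muscle, read 88.6, 30.1, 19 and 37.6 against 7525, 9162, 10180.1, 16459 and 7485 (log2 difference -8.03 ± 0.38, adjusted p = 4.4e-08). The voltage sensor Cacna1s and its gamma subunit Cacng1 were higher in quadriceps (-4.68 ± 0.26 and -4.86 ± 0.25), and the cardiac pore Cacna1c and the beta subunit Cacnb2 were higher in left ventricle (3.95 ± 0.25 and 3.24 ± 0.33). The reuptake pump of fast fibres, Atp2a1, had -8.46 ± 1.23, and the pump of heart and slow fibres, Atp2a2, had 3.59 ± 0.67. The calcium stores of the reticulum followed, with Casq1 at -5.39 ± 0.25 and Casq2 at 2.23 ± 0.30.

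Slc8a1, the sodium-calcium exchanger by which heart cells expel calcium, read 3040.3, 2843, 2805 and 2819 in left ventricle and 414, 599, 476, 139.8 and 313 in quadriceps (log2 difference 3.04 ± 0.34, adjusted p = 2.98e-05). S100a1, a calcium sensor that binds the release channel, was also higher in left ventricle (log2 difference 2.88 ± 0.15, adjusted p = 9.6e-08). Pvalb, the calcium buffer that lets fast fibres relax quickly, was higher in quadriceps (log2 difference -4.71 ± 0.43, adjusted p = 7.33e-06) and read 1068, 302, 383 and 598 in left ventricle. On a second Pvalb probe set the left ventricle values were lower, 152, 26.2, 18.5 and 22.2, and the log2 difference was -7.75. The kinase subunit Camk2b (-2.65 ± 0.14) and the phosphatase inhibitor Ppp1r1a (-3.33 ± 0.36) were higher in quadriceps. Fkbp1a, which binds the release channels of both muscles, did not pass the test (log2 difference 0.09 ± 0.12, adjusted p = 0.568), nor did Hrc (log2 difference 0.10 ± 0.15, adjusted p = 0.591). Cacna2d1, an accessory subunit of the L-type channel, was not called either (log2 difference -0.66 ± 0.40, adjusted p = 0.197). Cacna2d1 was called without quadriceps array 4 (adjusted p = 0.0398). Fkbp1b, the binding protein with preference for Ryr2, was called with overlapping groups (log2 difference 1.17 ± 0.43, adjusted p = 0.0422) and was not called after median centring (adjusted p = 0.0767). Fkbp1b was not called without left ventricle array 1, 2, 3 or 4 or quadriceps array 3, 4 or 5 (adjusted p = 0.0575 to 0.121).

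Of 15 potassium, chloride and pacemaker channel genes, 7 were higher in left ventricle and 4 in quadriceps. Kcnk3, Kcnd2, Kcna5 and Abcc8 passed the signal filter through left ventricle alone, and Kcna7, Kcnab1 and Kcnj12 through quadriceps alone. The direction of these genes was set by the filter. Kcnk3, a background potassium channel, read 189, 229, 253 and 250.2 against 5.6, 29.4, 9.3, 8.5 and 6.6 (log2 difference 4.56 ± 0.45, adjusted p = 1.31e-05). Kcnd2, a carrier of the transient outward current, read 158, 104, 133 and 123 against 0.7, 11.5, 6, 8.3 and 1.8 (log2 difference 4.51 ± 0.51, adjusted p = 3.12e-05). The delayed rectifiers Kcna5 (1.76 ± 0.31) and Kcnh2 (1.44 ± 0.32) and both Kcnj8 (1.47 ± 0.19) and Abcc8 (1.74 ± 0.28), parts of ATP-sensitive channels, were also higher in left ventricle. Kcnj11 (1.27) and Abcc9 (0.13), also parts of such channels, overlapped between the groups and were not called. Clcn1, the chloride channel that steadies the resting potential of limb fibres, read 74.9, 168, 32.6 and 98.2 against 1165, 1128, 1229, 992 and 905 (log2 difference -3.76 ± 0.36, adjusted p = 1.05e-05). Kcna7 (-2.40 ± 0.43), Kcnab1 (-2.13 ± 0.44) and Kcnj12 (-1.10 ± 0.22) were higher in quadriceps. Hcn2 was called (log2 difference 0.60 ± 0.22, adjusted p = 0.0413) with overlapping groups and not after median centring (adjusted p = 0.137). Hcn2 was not called without left ventricle array 1, 3 or 4 or quadriceps array 1, 2 or 3 (adjusted p = 0.0505 to 0.127). A second Hcn2 probe set differed by more and without overlap (3.98, adjusted p = 0.000369 when tested alone). Another 4 channel genes were not called on their brightest probe set. One of them was Kcnq1, the pore of a slow delayed rectifier of the heart (log2 difference 0.37 ± 0.16, adjusted p = 0.0826), whose second probe set read 244, 201, 229 and 225 in left ventricle and 3.9, 23.7, 15.9, 33.4 and 5.4 in quadriceps (4.21, adjusted p = 0.000149 when tested alone). The level of Kcnq1 therefore depends on the probe set read. Kcnk3, Kcnd2, Kcnj8 and Clcn1 were also called with run as a random block, and the others were not. Of the pumps, the beta subunit Atp1b2 was higher in quadriceps (log2 difference -2.74 ± 0.39, adjusted p = 0.000189), and the water channel Aqp1 higher in left ventricle (log2 difference 1.77 ± 0.25, adjusted p = 0.00015). Atp1b2 passed the signal filter through quadriceps alone, so its direction was set by the filter.

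Of 8 genes of the nerve-muscle synapse, 4 were called higher in quadriceps and 2 in left ventricle, 1 of these (Chrne) with probe sets that disagree. Chrna1 and Ache passed the signal filter through quadriceps alone and Chrne through left ventricle alone, so their direction was set by the filter. Chrna1, a subunit of the acetylcholine receptor, read 5.1, 4.7, 4.1 and 6.6 in left ventricle and 114, 129, 151, 37.6 and 176 in quadriceps (log2 difference -4.42 ± 0.48, adjusted p = 2.57e-05). Chrnb1 (-1.78 ± 0.19), the acetylcholine-splitting enzyme Ache (-2.79 ± 0.24) and the clustering protein Rapsn (-0.81 ± 0.22) followed. Agrn, the matrix protein that triggers clustering when released by the nerve, was higher in left ventricle (log2 difference 2.84 ± 0.34, adjusted p = 5.1e-05). Chrne was also called higher there (log2 difference 1.44 ± 0.21, adjusted p = 0.000215), on a probe set shared with other transcripts. Another Chrne probe set, under the signal filter, ran the other way without overlap, 22.7, 14.9, 18.7 and 10.9 against 39.2, 50.1, 52.2, 58 and 72, so the direction of Chrne is not settled.

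Of 11 intercalated disc and gap junction genes 9 were higher in left ventricle and 0 in quadriceps, with a median log2 difference of 2.57. Cdh2 and Dsc2 passed the signal filter through left ventricle alone, so their direction was set by the filter. Cdh2, the cadherin of the disc, read 1166, 1279, 1869.6 and 1600.1 against 14.9, 59.3, 9.9, 9.3 and 19.3 (log2 difference 6.39 ± 0.46, adjusted p = 1.09e-06). The desmosomal genes Dsp (5.57 ± 0.69), Dsc2 (5.82 ± 0.55), Pkp2 (3.85 ± 0.23) and Dsg2 (2.57 ± 0.26) were all higher in left ventricle. Gja1, the main gap junction protein of the ventricle, read 6111, 6237, 5977 and 5198 against 428, 1004, 246, 344 and 418 (log2 difference 3.76 ± 0.32, adjusted p = 3.81e-06). Ctnna1, which ties the junctions to the actin skeleton, had 2.38 ± 0.14. The 2 genes that did not pass the test, named after their values were seen, were Jup, another desmosomal protein (log2 difference 0.98 ± 0.50, adjusted p = 0.128), and the conduction system connexin Gja5 (log2 difference 0.59 ± 0.50, adjusted p = 0.363). Jup was called without quadriceps array 4 (adjusted p = 0.0208).

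All 6 tested hormone and stress genes of the heart were called higher in left ventricle, and 4 of the 6 (not Nppa or Mt2) with run as a random block or with chip lot as a block. Nppb, the B-type natriuretic peptide, read 4749, 7197, 5144 and 4825 against 36.5, 223, 40.3, 123 and 15.4 (log2 difference 6.56 ± 0.62, adjusted p = 8.81e-06). Nppa, the atrial peptide, read 699, 1149, 725 and 646 against 37.4, 173, 112, 259.5 and 64.1 (log2 difference 2.91 ± 0.47, adjusted p = 0.000429). Ankrd1, a stress-responsive protein of the sarcomere, read 5445, 6063, 5777 and 4957 against 152, 669, 119, 43.8 and 112 (log2 difference 5.28 ± 0.57, adjusted p = 2.43e-05), and its difference in the SJL/J arrays was 0.75. Mt1, a metal-binding protein, had 3.02 ± 0.32 and Mt2 1.12 ± 0.32, and in the SJL/J arrays both had the opposite sign (-1.13 and -3.64). Of 5 receptor and signalling genes, 4 were higher in left ventricle, among them the adenylyl cyclase Adcy6 (log2 difference 2.54 ± 0.20, adjusted p = 2.2e-06), the G protein subunit Gnai2 (1.03 ± 0.13) and Rgs2, a regulator of G protein signalling (1.81 ± 0.24).

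Of 8 tested heart factors, 7 were higher in left ventricle and 0 in quadriceps (median 3.18). Nkx2-5, Gata6 and Zfpm2 passed the signal filter through left ventricle alone, so their direction was set by the filter. Nkx2-5, the homeobox factor at the head of the heart programme, read 222, 346, 292 and 340.2 against 9.1, 9.5, 6.7, 22.2 and 9.8 (log2 difference 4.82 ± 0.36, adjusted p = 1.32e-06). The homeodomain-only protein Hopx (4.70 ± 0.35), Gata6 (4.22 ± 0.51), its cofactor Zfpm2 (4.08 ± 0.52) Zfpm1 (1.42 ± 0.26) and the patterning factor Irx3 (2.28 ± 0.21) followed. Gata4 differed little, 221, 195, 265 and 251 against 159, 171, 200.3, 152 and 179 (log2 difference 0.43 ± 0.15, adjusted p = 0.0386), and was not called after median centring (adjusted p = 0.236). Gata4 was not called without left ventricle array 1, 3 or 4 or quadriceps array 1 or 2 (adjusted p = 0.0659 to 0.124). Hand1 was not called (log2 difference 0.69 ± 0.34, adjusted p = 0.12). Another 7 heart factors on the array stayed under the signal filter and were not tested.

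Of 10 tested skeletal factors, 8 were higher in quadriceps and 1 in left ventricle (median -1.70). Tbx15, Myf6, Myog, Six2, Six4, Sox6 and Pitx1 passed the signal filter through quadriceps alone, so their direction was set by the filter. Tbx15, a T-box factor of limb muscle, read 4, 2.2, 2.2 and 3.2 in left ventricle, at or near the floor on each array, and 767, 679, 967, 527 and 691 in quadriceps (log2 difference -7.74 ± 0.23, adjusted p = 2.18e-09). Myf6, the myogenic factor most abundant in adult fibres, read 54.3, 31, 33.6 and 8.3 against 544, 519, 407, 311 and 481 (log2 difference -4.08 ± 0.44, adjusted p = 2.33e-05). Six2 (-3.68 ± 0.36), Six4 (-2.28 ± 0.26) and Sox6, which represses slow genes in fast fibres (-2.11 ± 0.25), were higher in quadriceps. Myod1 (-1.15 ± 0.19), Myog (-1.29 ± 0.26) and Pitx1 (-1.18 ± 0.39) differed less, and Eya1 was higher in left ventricle (0.53 ± 0.16), though not after median centring (adjusted p = 0.0833). Eya1 was not called without left ventricle array 1 (adjusted p = 0.0607). Pitx1 was not called without left ventricle array 2, 3 or 4 (adjusted p = 0.0514 to 0.0779).

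Factors known from both muscles were mixed, 2 higher in left ventricle and 3 in quadriceps of 12. Mef2c, a MADS-box partner of the myogenic factors, read 137, 78.3, 100.3 and 110.0 against 1026, 729, 807, 214 and 1194 (log2 difference -2.72 ± 0.42, adjusted p = 0.000306), with quadriceps array 4 the lowest of its group. The nuclear receptor Nr4a1 was also higher in quadriceps (log2 difference -2.40 ± 0.37, adjusted p = 0.000287), and Mef2d by less (log2 difference -0.37 ± 0.14, adjusted p = 0.042). Mef2d was not called without left ventricle array 1, 2, 3 or 4 or quadriceps array 1, 2 or 3 (adjusted p = 0.0534 to 0.118). Esrra and Ppara, nuclear receptors that drive oxidative genes, were higher in left ventricle (0.72 ± 0.14 and 0.99 ± 0.23). Mef2a (log2 difference 0.67 ± 0.31, adjusted p = 0.0984) did not pass the test. Of 39 Hox genes, which record position along the body axis, 31 were on the array and 7 passed the signal filter. Hoxc9 read 16.3, 17.5, 16 and 13 against 166, 200.3, 167, 122 and 127 (log2 difference -3.30 ± 0.25, adjusted p = 1.33e-06), and Hoxd8 (-2.93 ± 0.46) and Hoxc6 (-1.92 ± 0.34) were also higher in quadriceps. Hoxa4, a more anterior gene, was higher in left ventricle (log2 difference 0.88 ± 0.16, adjusted p = 0.00101). The other 3 were not called. Hoxc9 passed the signal filter through quadriceps alone, so its direction was set by the filter.

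**Figure D3:**
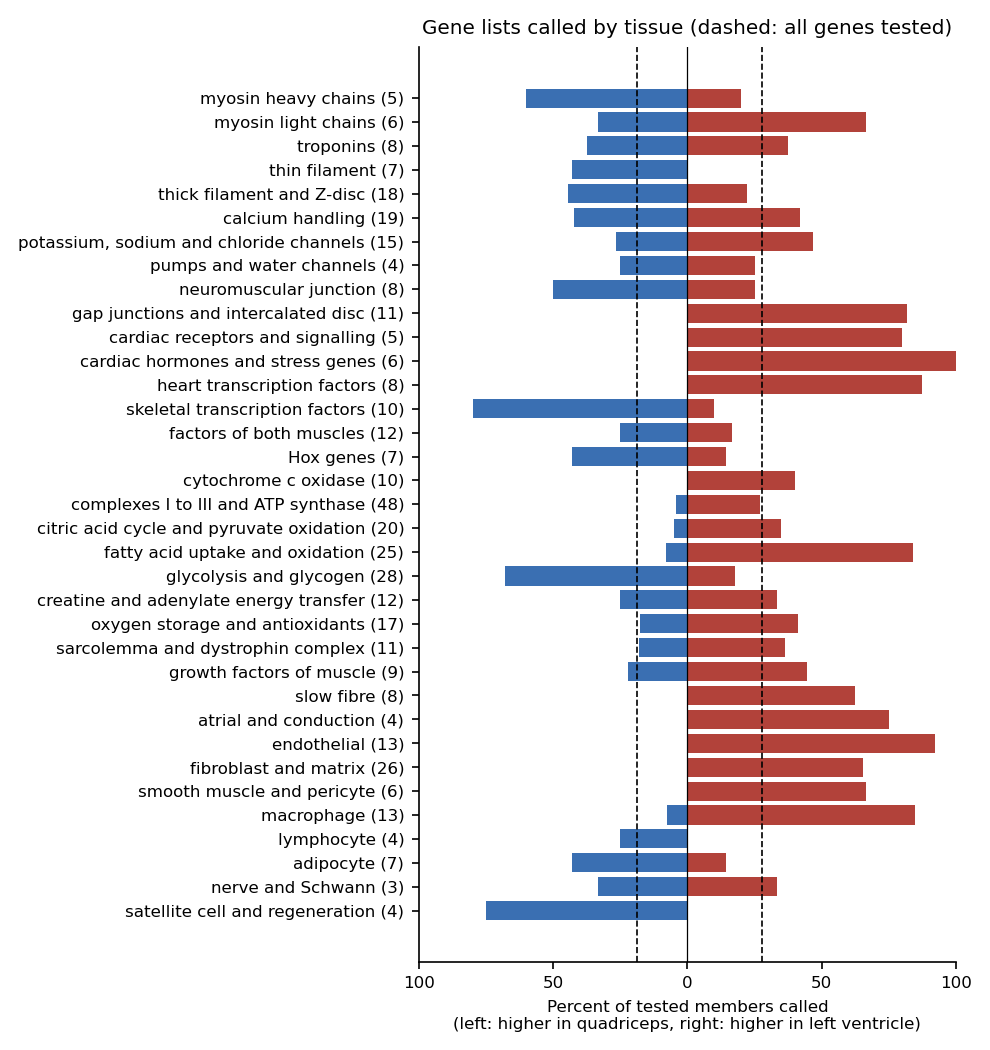
Percent of tested members called higher in left ventricle (right, red) and higher in quadriceps (left, blue) for gene lists with at least 3 tested members. The number tested is in brackets, and the skeletal and heart defining lists are not shown. Dashed lines give the percent of all 5244 genes called in each direction, 27.6 and 18.7.

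Genes of fatty acid uptake and oxidation were mostly higher in the heart. Of 25 tested, 21 were higher in left ventricle and 2 in quadriceps, with a median of 1.12. Cpt1a, the liver-type gate enzyme for entry of fatty acids into mitochondria, read 364, 506, 529 and 346 against 102, 96.2, 41.4, 47.3 and 92.8 (log2 difference 2.60 ± 0.30, adjusted p = 3.84e-05). Inside the mitochondria, the carrier Slc25a20 (1.09 ± 0.16), Cpt2 (1.16 ± 0.17), Echs1 (1.25 ± 0.16), Decr1 (2.0 ± 0.22) and the electron acceptor Etfdh (1.79 ± 0.23) were higher in left ventricle too. Among uptake genes, chosen after their values were seen, Fabp3, the fatty acid binding protein of heart, read 4708, 4536, 4796 and 5153 against 1119, 1776, 1015, 335 and 1380.4 (log2 difference 2.28 ± 0.38, adjusted p = 0.000534), and Lpl and Cd36 had 1.79 ± 0.47 and 1.61 ± 0.45. Ucp3, an uncoupling protein of limb muscle, was higher in quadriceps (log2 difference -0.63 ± 0.22, adjusted p = 0.0351). Ucp3 was not called without left ventricle array 1 or 4 or quadriceps array 2 (adjusted p = 0.0686 to 0.117). Acads was called higher in quadriceps on its brightest probe set (-0.45 ± 0.15) and higher in left ventricle on a second one (1.34), so its direction is not settled. The ketone genes Slc16a1 (1.87 ± 0.32) and Oxct1 (0.68 ± 0.25) were higher in left ventricle, Oxct1 not after median centring (adjusted p = 0.172). Oxct1 was not called without left ventricle array 1, 2, 3 or 4 or quadriceps array 3 or 5 (adjusted p = 0.0543 to 0.0991). With run as a random block 11 of the 25 fatty acid genes were called higher and 0 lower, against 9.17% and 6.16% of all genes.

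Glycolysis and glycogen genes ran the other way, 19 of 28 higher in quadriceps and 5 in left ventricle (median -1.10). Phkg1, the catalytic subunit of the kinase that starts glycogen breakdown, read 98.8, 104, 97.7 and 87.2 against 2048, 1643, 1708, 775 and 1379 (log2 difference -3.89 ± 0.24, adjusted p = 3.53e-07), and its regulatory subunit Phka1 followed (log2 difference -3.18 ± 0.26, adjusted p = 3.32e-06). The glycerol phosphate shuttle genes Gpd1 (-3.13 ± 0.27) and Gpd2 (-2.40 ± 0.22) and the regulator Pfkfb3 (-1.52 ± 0.21) were higher in quadriceps. All 5 genes higher in left ventricle are isoforms of enzymes with a separate muscle form. Pygb, the brain form of glycogen phosphorylase, read 992, 1374, 1446 and 1485 against 20.8, 55.6, 24.2, 37.6 and 23.3 (log2 difference 5.44 ± 0.28, adjusted p = 9.18e-08), while the muscle form Pygm had -1.84 ± 0.27. The phosphofructokinases Pfkl (2.29 ± 0.19) and Pfkp (2.72 ± 0.31) were opposed to Pfkm (-1.12 ± 0.13), and Pgam1 (1.22 ± 0.23) to Pgam2 (-1.60 ± 0.28). Ldhb, the lactate dehydrogenase form of oxidative tissue, read 2089, 1869.6, 1608 and 1847 against 223, 196, 177, 174 and 731 (log2 difference 2.88 ± 0.37, adjusted p = 7.93e-05), and Ldha had -1.57 ± 0.29.

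Many muscle-form enzymes remained abundant in the heart, with Pygm at 3125, 3418, 3439.6 and 3943 and Ldha at 3733, 4073, 3774 and 4332 in left ventricle. For these abundant transcripts quadriceps array 4 read far above its group, with 25814 for Ldha and 24685 for Pygm. Without it 20 glycolytic genes were called higher in quadriceps and 5 in left ventricle. With run as a random block the counts were 15 and 4. The glucose transporter Slc2a4, chosen after its values were seen, was not called (log2 difference 0.14 ± 0.20, adjusted p = 0.581).

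Respiratory chain genes differed little. Of 48 genes of complexes I to III and ATP synthase, 13 were higher in left ventricle and 2 in quadriceps, with a median of 0.34, and of 10 cytochrome c oxidase subunits 4 were higher and 0 lower (median 0.44). These counts depend on the scaling and the block: the 48 gave 6 higher and 3 lower after median centring and 27 and 2 after quantile normalization. With chip lot as a block they gave 15 higher and 9 lower, and with run as a random block 2 and 0. Cox6a1, the subunit form of tissues other than striated muscle, was higher in left ventricle (3103, 3556, 2985 and 3028 against 601, 769.8, 1027, 1189 and 1149, log2 difference 1.78 ± 0.20, adjusted p = 3.47e-05), whereas Cox6a2, chosen after its values were seen as the muscle form of the same subunit, was not called (log2 difference -0.18 ± 0.23, adjusted p = 0.542). Cox7a1 (1.14 ± 0.17) and Cox4i1 (0.57 ± 0.13) were higher in left ventricle. Uqcr11 (1.51 ± 0.33) and Atp5k (1.26 ± 0.17) had the largest differences in their list, and Ndufs4 (-1.0 ± 0.24) and Atp5g1 (-1.09 ± 0.31) were higher in quadriceps. Second probe sets of Cox4i1 (-0.26), Atp5g1 (0.04) and Cox8b (0.30) were not called when tested alone.

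The same contrast in the SJL/J arrays, 4 of left ventricle against 3 of quadriceps, called 7 of the 48 genes higher and 19 lower, where it called 30.1% of all genes higher and 24% lower. Uqcr11 read 3712, 3556, 3789 and 3812 against 1977, 1169.9, 1536, 530.5 and 1983 in C57BL/6 and 404, 434, 355 and 357 against 1727, 1757 and 1904 in SJL/J (-2.22). Cox8b, the muscle form of another oxidase subunit, had 0.66 ± 0.23 in C57BL/6 and -3.40 in SJL/J, and Cox7a1 and Atp5k also had the opposite sign there (-1.26 and -2.32). Cox8b was not called without left ventricle array 1, 2, 3 or 4 or quadriceps array 1 (adjusted p = 0.0557 to 0.08). The Gapdh 5′ to 3′ ratio of those SJL/J left ventricle arrays was 0.101 to 0.335, below every C57BL/6 array, and its part in the difference was not tested. Over all genes called in C57BL/6, 2025 of 2429 had the same sign in SJL/J, 1491 were called in the same direction and 141 in the opposite one. Among differences of at least 2-fold, 1166 of 1319 had the same sign.

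The citric acid cycle gave 7 higher and 1 lower of 20. Idh2, the NADP-dependent isocitrate dehydrogenase of mitochondria, stood out with 3576, 3968, 3818 and 3946 against 526, 471, 372, 398 and 1078 (log2 difference 2.87 ± 0.27, adjusted p = 7.79e-06). Dlst and Ogdh, parts of the oxoglutarate dehydrogenase, had 1.44 ± 0.18 and 0.95 ± 0.16, and the kinase Pdk1, a brake on pyruvate oxidation, had 0.88 ± 0.15. Pcx, which feeds the cycle from pyruvate, was higher in quadriceps (log2 difference -2.74 ± 0.45, adjusted p = 0.000489) on a shared probe set. Ckm, the cytosolic creatine kinase of muscle, read 1181, 1439, 1407 and 1779 against 7376, 9625, 7081, 15907 and 5830.5 (log2 difference -2.58 ± 0.26, adjusted p = 1.52e-05), and adenylate kinase Ak1 had -1.40 ± 0.17, while the mitochondrial creatine kinase Ckmt2 was not called (log2 difference -0.18 ± 0.15, adjusted p = 0.321). A second Ckm probe set of low signal showed no such difference (0.08).

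**Figure D4:**
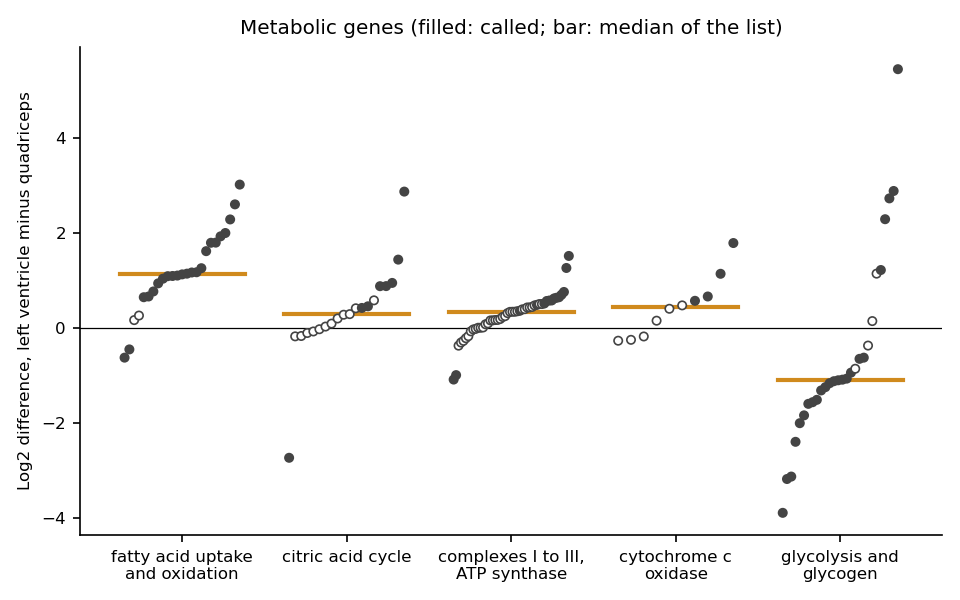
Log2 difference (left ventricle minus quadriceps) of every tested gene of 5 metabolic lists, 1 point per gene, with list medians as bars and called genes filled. Fatty acid genes lie mostly above 0, glycolysis and glycogen genes mostly below, and the respiratory chain genes lie close to 0.

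Among oxygen and redox genes 7 of 17 were higher in left ventricle and 3 in quadriceps. Myoglobin, Mb, read 7198, 8409, 7949 and 8578 against 2354, 2924, 2907, 1990.4 and 5856 (log2 difference 1.43 ± 0.26, adjusted p = 0.00103), with quadriceps array 5 closest to the ventricle. The peroxiredoxin Prdx2 (1.31 ± 0.14), the mitochondrial thioredoxin Txn2 (1.17 ± 0.13) and the superoxide dismutases Sod2 (0.83 ± 0.14) and Sod3 (0.96 ± 0.13) were higher in left ventricle. Of 11 sarcolemma genes 4 were higher in left ventricle, among them Lama2 (1.42 ± 0.20) and Sgce (1.40 ± 0.24), and 2 in quadriceps. Capn3, the muscle-specific calpain, read 236, 260.4, 239 and 233 against 1446, 1527, 1526, 1775 and 1407 (log2 difference -2.66 ± 0.12, adjusted p = 3.81e-08). Mstn, the inhibitor of limb muscle growth, read 9.2, 2.7, 4.9 and 11.3 against 1058, 926, 886, 670.5 and 1006 (log2 difference -7.16 ± 0.35, adjusted p = 4.72e-08). Fgf1 (2.46 ± 0.35), Vegfa (1.66 ± 0.31) and Vegfb (0.79 ± 0.17) were higher in left ventricle, and Fgf6 in quadriceps (-2.07 ± 0.28).

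Markers of vessel and connective tissue cells were more abundant in the ventricle. Of 13 endothelial genes 12 were higher in left ventricle and 0 in quadriceps, with a median of 1.61, and their summed signal was 6520.5 to 7955 on left ventricle arrays and 1974 to 2353 on quadriceps arrays. Tie1, an endothelial receptor kinase, read 1046, 973, 1055 and 926 against 252, 284, 257, 229 and 269.9 (log2 difference 1.95 ± 0.12, adjusted p = 4.15e-07). Eng (2.61 ± 0.18), the vessel growth factor receptors Kdr (2.35 ± 0.24) and Flt1 (1.60 ± 0.14), and Emcn (1.92 ± 0.20) and Cdh5 (1.52 ± 0.18) followed. A call was also made for 9 of the 13 with run as a random block.

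Of 26 fibroblast and matrix genes, 17 were higher in left ventricle and 0 in quadriceps (median 1.03), and with run as a random block 10 were higher. The basement membrane collagen gene Col4a2 read 1784, 1959, 1688 and 1799.5 against 480.4, 521, 542, 575 and 494 (log2 difference 1.79 ± 0.12, adjusted p = 6.12e-07). Bgn (2.45 ± 0.17), Postn (2.33 ± 0.29) and the cardiac fibroblast factor Tcf21 (2.84 ± 0.41) were higher by more. Smooth muscle and pericyte markers gave 4 of 6 higher (1 with run as a random block and 2 with chip lot as a block), among them Pdgfrb (1.78 ± 0.27). Acta2 was higher too (log2 difference 1.12 ± 0.28, adjusted p = 0.00642), with 719.5, 1499, 605 and 533 in left ventricle, where array 2 read highest.

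Macrophage markers gave 11 of 13 higher in left ventricle and 1 in quadriceps (median 1.44). C1qa, a complement component made by macrophages, read 262, 204, 276 and 200.2 against 88.3, 47.8, 35.1, 20.9 and 43.9 (log2 difference 2.46 ± 0.35, adjusted p = 0.000164), and Csf1r (1.44 ± 0.24), Ctss (1.57 ± 0.31) and Cd68 (1.19 ± 0.20) followed. C1qb was higher in quadriceps on its brightest probe set (-2.66 ± 0.30) and higher in left ventricle on a second one (2.57), so its direction is not settled. Only C1qa and Csf1r of the list were called higher with run as a random block, and in the SJL/J arrays 2 of the 13 were higher and 2 lower.

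Of 7 fat cell markers, 3 were higher in quadriceps, 1 in left ventricle and 3 were not called (median -0.11). Adipoq, the adiponectin gene, read 65.6, 142, 42.4 and 40.7 against 900.4, 628, 975, 934 and 678 (log2 difference -3.68 ± 0.33, adjusted p = 6e-06), and the fat hormone Retn (-4.27 ± 0.28) and the desaturase Scd1 (-2.90 ± 0.22) followed, each without overlap. Pparg, the nuclear receptor of fat cell formation, was higher in left ventricle (log2 difference 0.83 ± 0.27, adjusted p = 0.0253). Pparg was not called without left ventricle array 1, 2, 3 or 4 or quadriceps array 2 or 3 (adjusted p = 0.0501 to 0.0619). The summed signal of the list was 1153 to 1541 in left ventricle and 3829 to 6104 in quadriceps. Bright members weigh most in this sum, and the list median was near 0, so the sum does not describe the list as a whole. Blood was measured by Hba-a1, a globin gene with a near-identical copy (log2 difference 1.30 ± 0.26, adjusted p = 0.00173), with 4221, 6693, 5324 and 5762 against 2895, 1228, 2259.6, 3211 and 1983, and by Alas2 (log2 difference 1.34 ± 0.38, adjusted p = 0.0126). Neither of these blood genes was called with run as a random block or with chip lot as a block. Satellite cell genes were higher in quadriceps in 3 of 4, led after Myh8 by the cadherin Cdh15 (log2 difference -2.80 ± 0.42, adjusted p = 0.00025). Myh8 passed the signal filter through quadriceps alone, so its direction was set by the filter. Of 4 lymphocyte genes only Ighm was called, higher in quadriceps (log2 difference -1.46 ± 0.33, adjusted p = 0.00358) on a shared probe set, and of 3 nerve genes 1 was higher in each tissue. No epicardial gene passed the signal filter.

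Quadriceps samples differed among themselves in slow fibre genes. Tnnt1, the slow troponin T, read 263, 138, 241, 5989 and 7226 on quadriceps arrays 1 to 5 and 346, 398, 419.5 and 328 on left ventricle arrays. Tnni1, the slow troponin I, read 117, 68.9, 94.8, 1481 and 2376 in quadriceps, and the slow tropomyosin Tpm3 read 225, 191, 247, 1161 and 3687. Arrays 4 and 5 stood far above arrays 1, 2 and 3 in each, as for Myh7. Ankrd2, a stretch-responsive gene of slow fibres, was also highest on arrays 4 and 5, 122, 93.7, 200.4, 467 and 1269, and was called higher in quadriceps (log2 difference -2.43 ± 0.63, adjusted p = 0.00776).

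None of Tnnt1, Tnni1, Tpm3 and Myh7 passed the test between the tissues, with log2 differences of -1.15 ± 1.10, -0.51 ± 0.96, -1.66 ± 0.75 and 2.04 ± 0.86. Tpm3 was called without quadriceps array 2 (adjusted p = 0.0469). The summed signal of the 8 slow fibre markers ran from 1329 to 23499 over quadriceps arrays and from 32417 to 34972 over left ventricle arrays. Most of the ventricle sum came from Myl2, Myl3, Tnnc1, Atp2a2 and Myh7, which heart muscle itself expresses. It is therefore no measure of slow fibres there. Arrays 4 and 5, which read high, differ in run and chip lot, and a part of either was not tested. Array 2, whose Myl2 signal of 2839 was near the 2899 and 3369 of arrays 4 and 5, read low for Tnnt1 and Tnni1 and high for the heart genes Myh6 and Tnni3. For both heart genes array 4 read 870.1 and 1202.5, and array 5 read low (122 and 78).

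Left ventricle samples differed among themselves in atrial genes. Myl7, the atrial regulatory light chain, read 2168, 3079, 1015 and 152 on left ventricle arrays 1 to 4. Myl4, the atrial essential light chain, followed the same order with 696, 1169, 423 and 72.2, and array 4 lay within the quadriceps range of 95.5, 70.5, 65.4, 96.6 and 75.8. A second Myl4 probe set did not differ between the tissues (-0.10). Nppa also peaked on array 2, whereas the ventricular chain Myl2 (8186, 8816, 8270.2 and 8238) and Mybpc3 varied little. Both light chains were called between the tissues (log2 difference 6.50 ± 0.95, adjusted p = 0.000204 and log2 difference 2.32 ± 0.62, adjusted p = 0.00961), and their size rests on which ventricles are included: without left ventricle array 4 the log2 difference of Myl4 was 3.14 and without array 2 it was 1.80.

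**Figure D5:**
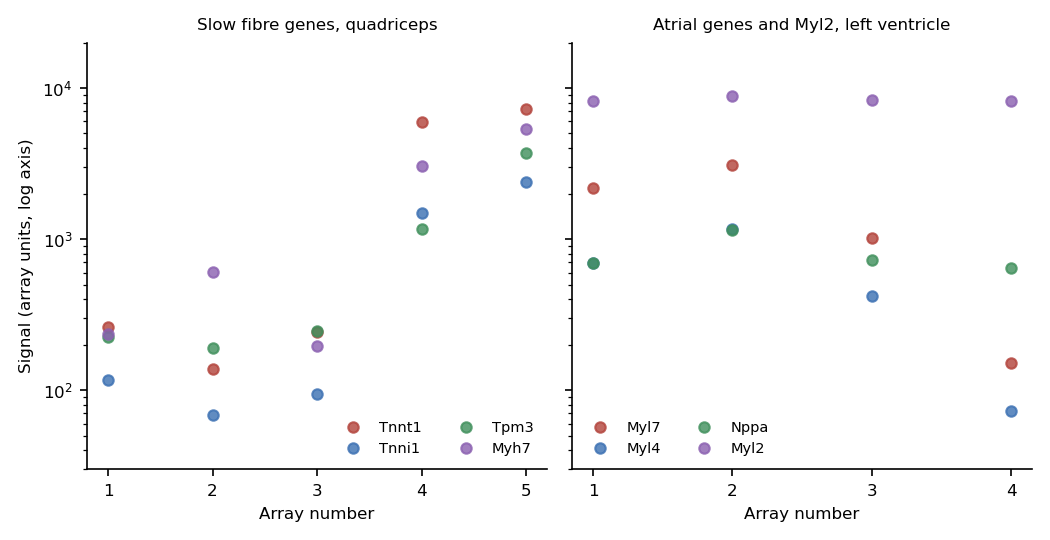
Signal (log scale) of 4 slow fibre genes on the 5 quadriceps arrays (left) and of 4 genes on the 4 left ventricle arrays (right), 1 point per array, numbered by array. Slow fibre genes are high on quadriceps arrays 4 and 5, and Myl7 and Myl4 fall to their lowest on left ventricle array 4, while Myl2 stays level.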

How the data were processed

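The deposited values are linear array intensities, 1 for each probe set, as their distribution shows. The trimmed means of the 20 arrays lie between 199 and 200, so the authors had brought the arrays to a common scale. Which program summarised the probes the sources used here do not say. Of 12488 probe sets, 66 controls, 396 with several symbols and 1193 with none in the platform annotation were left out, and 10817 of the 10833 symbols left were found in the RefSeq gene table. Signals under the 5th percentile (3.1) were raised to it and log2 was taken. Probe sets with a mean above the median signal (68.8) in at least 1 group were kept, the brightest for each gene, which left 5244 genes. The 9 arrays were fitted by lmFit and moderated with a mean-variance trend in limma 3.58.1 (R 4.3.3), with Benjamini-Hochberg adjusted p under 0.05 as a call. Adjusted p-values in the text come from this fit unless another is named. On simulated data for this comparison (5244 genes), 7.46% of differences of 0.5 on the log2 scale were recovered, 55.2% of 1 and 90.9% of 2, and 5.56% of calls were false. The simulation planted these sizes in only 67, 67 and 66 genes, with independent noise and no run effect. In the data 46.3% of genes were called and run follows tissue, so these shares need not hold for them. Arrays have no read depth, so the number of arrays limits the precision, and p-values measure only the spread between these arrays. Alternatives were other scalings, floors, filters, probe set choices, left out arrays, and replicate, run and chip lot blocks.

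The rule for naming genes took the 15 largest differences in each direction whose groups did not overlap, members of the sarcomere, calcium, channel, pump, hormone, transcription factor and Hox lists and of the isoform pairs, up to 6 members with the smallest p in each direction from other lists, and markers of the other muscle. The text names part of the genes this rule allows and gives the others as counts. The members and lists were chosen with earlier results of these data known, and 407 of 637 list genes were tested.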

Additional observations from a re-analysis of the deposited data

Results flagged for a closer look

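Group values by array were searched for 1 array far from the rest (a gap to the nearest array, relative to the range of the group, above Dixon's 95% critical value). This marked 11 of 154, and chance alone marks about 1 in 20. Quadriceps array 4 stood apart with the highest signal (46629), the lowest rank correlation with its group (0.863) and low signals of Chrna1 (37.6) and Mef2c (214). Quadriceps array 2 was far above its group for Ryr2 (139.5), and array 5 for Ldhb (731). Left ventricle array 1 read highest for Mylpf (30.8), Slc8a1 (3040.3) and Tbx15 (4.0, next to the floor). Left ventricle array 2 read highest for Myl2 (8816) and for the summed signal of the adipocyte markers (1541). Array 2 of left ventricle was also the highest for Acta2.

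For 7 named genes every left ventricle array lay above every quadriceps array in C57BL/6 and below it in SJL/J. The log2 differences in SJL/J were -2.32 for Atp5k, -0.38 for Cd68, -1.26 for Cox7a1, -3.40 for Cox8b, -0.55 for Esrra, -1.13 for Mt1 and -2.22 for Uqcr11. The difference between the strains was not tested. The Gapdh ratio of those SJL/J left ventricle arrays was 0.101 to 0.335, and its part was not tested.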

How the results depend on the processing

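The 2429 calls changed by more than 1.5 times only with run as a random block, to 804, all in the same direction. Chip lot as a block gave 2224, of which 1556 were among the 2429 in the same direction, and 2362 of the 2429 kept their sign. Leaving out 1 array at a time gave 2041 (without left ventricle array 3) to 2920 calls (without quadriceps array 4), and the other alternatives 2065 to 2993. Leaving out quadriceps arrays 2 and 4 together, chosen after seeing the data, gave 2683. With the replicate block there were 2175 calls. The replicate numbers share only a number: deviations of same-numbered arrays correlated at -0.05, -0.04, -0.01 and 0.07. Without 1 array, the exact permutation p of the median signal was 0.0286 to 0.0714, that of the rank correlation 0.0286 to 0.143, that of the Gapdh ratio 0.114 to 0.971 and that of the actin ratio 0.0571 to 0.514. Of the 193 named and called genes, 54 lost the call with run as a random block and 31 with chip lot as a block. Median centring took the call from 7 and quantile normalization from 5. None of these 193 changed direction on its brightest probe set under an alternative within C57BL/6. Other probe sets were not followed in that count. For Acads (1.34), C1qb (2.57) and Myh4 (1.47) a second probe set was called in the other direction. In the SJL/J arrays the sign was opposite for Atp5g1 (0.49), Atp5k (-2.32), C1qa (-0.16), Cd68 (-0.38), Cox7a1 (-1.26), Cox8b (-3.40), Ctss (-0.65), Dlst (-0.22), Esrra (-0.55), Fabp3 (-0.23), Fkbp1b (-0.51), Mt1 (-1.13), Mt2 (-3.64), Myl4 (-0.56) and Uqcr11 (-2.22). The cause was not tested. Signals near background limit the lower group of the largest differences, whose size depends on the floor.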

Other observations

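Left ventricle array 5, left out of the comparison, carried skeletal muscle transcripts together with a full set of heart transcripts. It read 5568 for Myh4, 5374 for the pump Atp2a1 and 3853 for Pvalb, each above all 4 left ventricle arrays used. The summed signal of the 8 skeletal defining genes was 18026, against 541 to 3461 on those arrays and 62755 to 207034 on quadriceps arrays. Its heart share was 0.981, and its summed satellite cell markers (246.9) also lay between those of left ventricle (119.5 to 149) and quadriceps (338 to 472).

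Of 87 further tested probe sets of list genes, 17 had the opposite sign to the brightest probe set of the same gene, and 4 were called in the opposite direction, for Acads, C1qb, Myh4 and Atp5l. The brightest Atp5l probe set, named here after its values were seen, had a log2 difference of 0.51 and the second one -0.70.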
